A study of Mus musculus with 13 samples.

Results

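Regions bound by Nkx2.2 and Olig2 at which no Nkx6.1 peak was called numbered 744 of the 17913 regions of these 3 transcription factors in neural progenitors derived from embryonic stem cells of the mouse. They were chosen by the deposited peak lists alone: peaks of the 3 factors that shared at least 1 bp were joined into regions, and a region was kept if it held an Nkx2.2 peak and an Olig2 peak and no Nkx6.1 peak. The presence and the absence of these peaks are therefore what defines the 744 regions and are not results. Positions are on the mouse build mm9, and genes, sequences and motifs at the regions were not analysed here.

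In the ventral neural tube, Olig2 marks the progenitors that give rise to motor neurons, and Nkx2.2 marks the progenitors lying ventral to them, which give rise to V3 interneurons. Nkx6.1 is made by the progenitors of both domains. Nkx2.2 and Nkx6.1 bind DNA through a homeodomain and Olig2 through a basic helix-loop-helix domain, and all 3 are known as repressors of genes of other progenitor domains; Olig2 is itself a known target of repression by Nkx2.2. Gli3 acts in the Sonic hedgehog pathway and is processed into a repressor when the signal is absent.

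Binding was read by sequencing immunoprecipitated chromatin (ChIP-seq). The 3 ventral factors were profiled in progenitors that spent 2 days in suspension and 3 days with 500 nM retinoic acid and 160 to 800 nM Smoothened agonist, which switches on hedgehog signalling. Each had 2 ChIP libraries, on a mixed background (Swiss Webster, C57BL6/J and 129 Sv): the line YFP3.1 gave replicate 1 of Nkx6.1 and of Olig2, and its derivative Rosa26-Gli1FLAG gave the other Nkx2.2, Nkx6.1 and Olig2 libraries. Antibody mixtures were used for Nkx2.2 and for Nkx6.1 and a single antibody for Olig2. Gli3 had 1 ChIP library, made with an anti-FLAG antibody from a V6.5 line (C57BL/6 X 129/sv) whose Gli3 start codon carries a 3xFLAG-Avi tag. Its cells were cultured without the agonist and are labelled dorsal, so factor, culture, line and antibody cannot be told apart in any comparison with Gli3. The factors were precipitated separately and Nkx2.2 and Olig2 mark different progenitors, so a shared region does not show that both were bound in the same cell. No expression values were used here, so the label of the cells was not checked against marker genes.

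The 4 lists held 5551 peaks for Nkx2.2, 11747 for Olig2, 4094 for Nkx6.1 and 1888 for Gli3, each peak 300 bp wide and without a score. For each ventral factor a table gave coverage around its peaks, in 3 blocks of columns whose headers carry no library names. For each table, the labels of 1 ChIP library (replicate 2 of the factor) and of its matched input DNA name it as their processed file, and a single input library is named for both the Olig2 and the Nkx6.1 table. At positions covered by both of these tables, 99.2% of 9157 block 3 values were equal, against 0 equal values in blocks 1 and 2. Block 3 of the Olig2 and Nkx6.1 tables therefore holds the same data and may be input coverage, and no source states the order of the blocks. The Nkx2.2 table, whose input is a different library, had 0 block 3 values equal to those of the others at shared positions. The blocks are numbered here and not treated as replicates, their units are comparable only within a block of a table, and the read depth behind them is unknown. With 1 list per factor, the tests below compare regions of these lists and not cultures, neighbouring regions are not fully independent, and the intervals (95%, Wilson for shares) cover counting error only.

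Most of the 744 regions were simple pairs. They held 781 Nkx2.2 peaks, which is 14.1% (13.2 to 15.0) of that list, and 761 Olig2 peaks, which is 6.48% (6.05 to 6.94) of that list. A single peak of each factor made up 697 regions, 40 regions held 3 peaks and 7 held 4. More than 1 Nkx2.2 peak occurred in 34 regions and more than 1 Olig2 peak in 16. The regions were 300 to 792 bp wide with a median of 371 bp, against 410 bp for the 550 regions of all 3 ventral factors. Median widths were 300 bp for Nkx2.2-only and for Olig2-only regions. They were 342 bp for Nkx6.1 and Olig2 regions without Nkx2.2 and 349 bp for Nkx2.2 and Nkx6.1 regions without Olig2.

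The Nkx2.2 and Olig2 centres lay about as often on either side of each other. Since the rule asks for overlapping peaks, the centres of a simple pair cannot be more than 299 bp apart, and closeness itself is no finding. Within that limit their median distance was 68 bp, with quartiles of 30 and 124 bp. Centres were within 50 bp in 292 regions (39.2%, 35.8 to 42.8) and within 150 bp in 606 (81.5%, 78.5 to 84.1), and in 6 regions both peaks had the same position. The Olig2 centre lay at the higher coordinate in 361 regions and at the lower one in 377. In regions of all 3 ventral factors the median was 73 bp, and 37.1% (33.2 to 41.2) of centres were within 50 bp, and this interval overlaps that of the 744. Just inside the rule were chr19:6141096-6141694, whose peaks shared 1 bp, and chr12:81011988-81012584 and chr6:80806815-80807411, with 3 bp each. Just outside it were pairs of Nkx2.2 and Olig2 peaks with gaps of 3 bp on chromosome 3 (107128607 to 107129209), 4 bp on chromosome 4 (130282103 to 130282706) and 7 bp on chromosome 19 (22897964 to 22898570). Overlaps of up to 10 bp held 7 regions in the set, and gaps of up to 10 bp kept 6 pairs out.

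**Figure D1:**
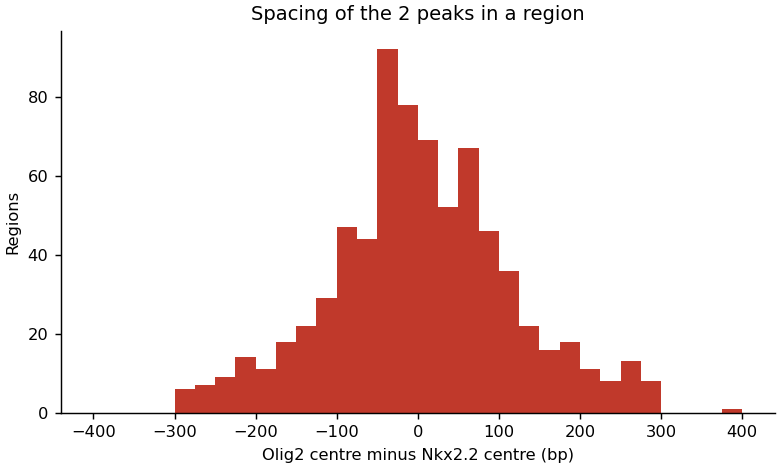
Number of regions (vertical axis) by the position of the Olig2 centre minus that of the Nkx2.2 centre in bp (horizontal axis, bins of 25 bp) in the 744 regions. The distances gather around 0 on both sides, with a median absolute distance of 68 bp.

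Coverage of both factors in these regions was above the middle of their lists and below the regions of all 3 factors. These values come from the same experiments as the peaks, so they describe the regions and are not tested. Within 250 bp of the Nkx2.2 centre, block 1 coverage had a median of 20.98 units (quartiles 15.8 and 29.2), against 16.7 at Nkx2.2-only regions and 27.3 at regions of all 3. Block 2 gave 5.67, 3.83 and 9.36 units. Around the Olig2 centre the medians were 14.1, 10.5 and 20.9 units in block 1 and 13.7, 7.33 and 21.3 in block 2, for these regions, Olig2-only regions and regions of all 3. Blocks 1 and 2 thus gave the same order of these classes in both tables. The other pairs of ventral factors had slightly higher medians than these regions. Nkx2.2 coverage at Nkx2.2 and Nkx6.1 regions without Olig2 had medians of 22.7 units in block 1 and 6.23 in block 2. Olig2 coverage at Nkx6.1 and Olig2 regions without Nkx2.2 had medians of 16.2 units in block 1 and 14.5 in block 2. Coverage above the middle of the lists was therefore shared with the other pairs.

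Block 3 behaved differently from the other blocks, and differently in the 2 tables. In the Nkx2.2 table its median was 1.07 units at these regions, below the 1.35 units of Nkx2.2-only regions and close to the 1.00 of regions of all 3. In the Olig2 table it was 0.99 units, above the 0.672 of Olig2-only regions, the 0.728 of Nkx6.1 and Olig2 regions without Nkx2.2 and the 0.859 of regions of all 3. Averaged over the regions, block 3 still formed a hump at the centre, reaching 2.23 times (Nkx2.2 table) and 2.09 times (Olig2 table) the right flank beyond 1750 bp, where block 1 reached 59.2 and 44.4 times. The hump was broad: the width at the middle of its height was 400 and 575 bp, against 200 and 225 bp in block 1. Across the 744 regions the rank correlation of block 3 between the tables was 0.48, while block 3 and block 1 of the same table had -0.04 for Nkx2.2 and 0.05 for Olig2.

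**Figure D2:**
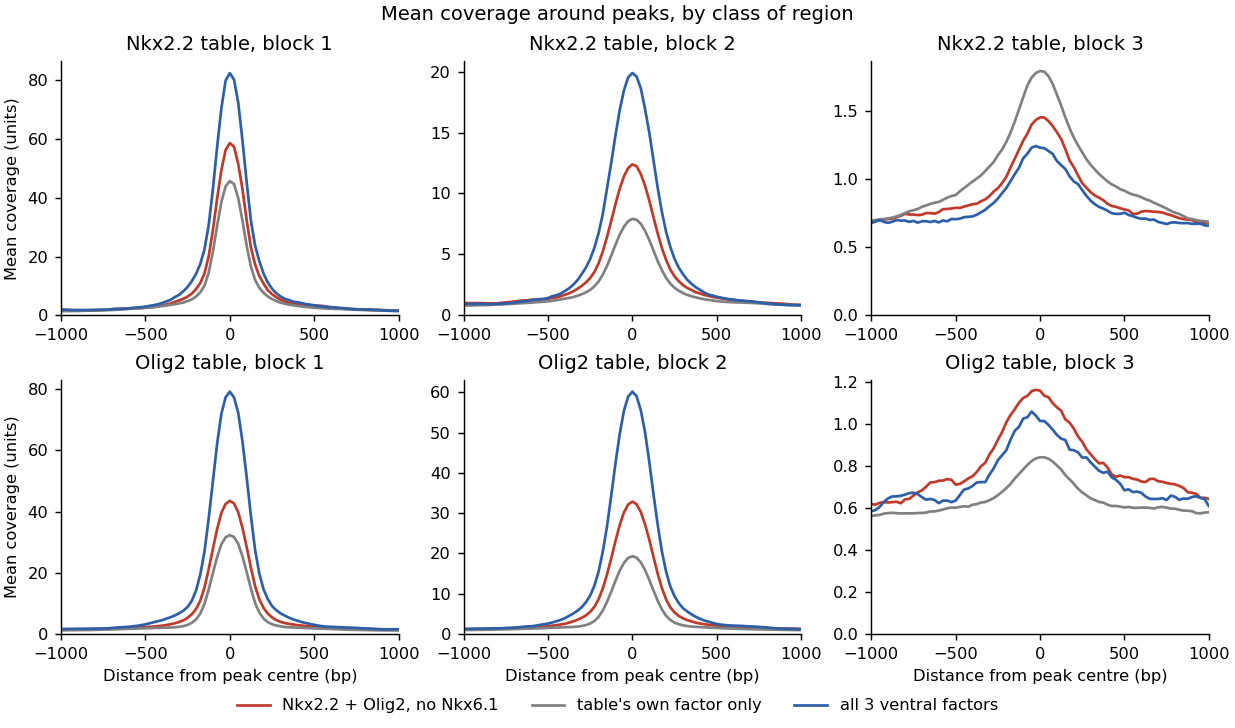
Mean coverage in units (vertical axes, each panel with its own scale from 0) by distance from the peak centre in bp, for the 3 blocks of the Nkx2.2 table (top) and the Olig2 table (bottom). Lines are the 744 regions (red), regions of only the table's own factor (grey) and regions of all 3 ventral factors (blue); the red line lies between the others in blocks 1 and 2, and in block 3 of the Olig2 table it is the highest.

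Nkx2.2 and Olig2 coverage were only loosely related across the regions, and every combination of strong and weak occurred. Each peak was given its percentile rank by block 1 coverage among all peaks of its list. The median rank was 60.4 for Nkx2.2 and 62.5 for Olig2. Both ranks were over 50 in 303 regions, only that of Nkx2.2 in 154, only that of Olig2 in 161 and neither in 126. Ranks over 90 were reached by 90 regions for Nkx2.2 and by 118 for Olig2, but by both in 15. Across regions the rank correlation of Nkx2.2 with Olig2 coverage was 0.13 in block 1 and 0.27 in block 2, whereas blocks 1 and 2 of the same factor had 0.64 for Nkx2.2 and 0.81 for Olig2. The regions of a table share its libraries and their depth, and these correlations are descriptions across regions.

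**Figure D3:**
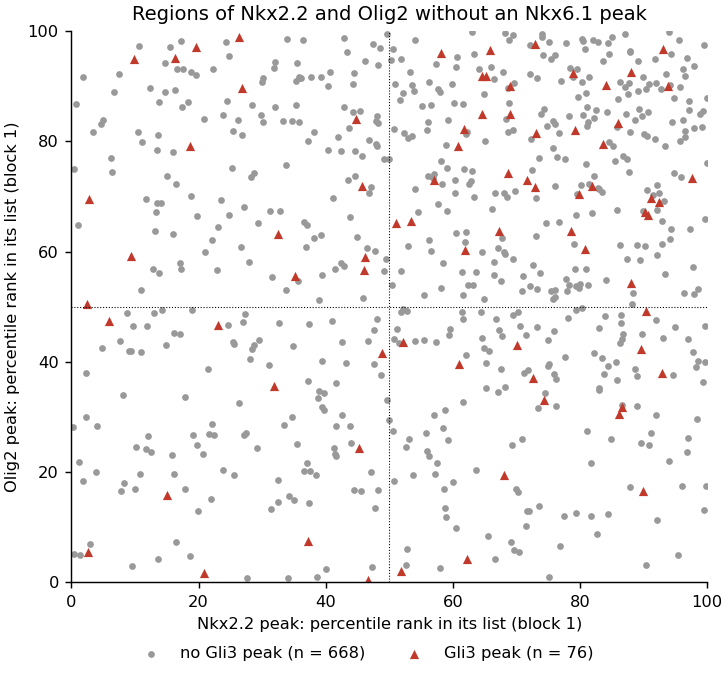
Percentile rank of the Nkx2.2 peak among all Nkx2.2 peaks (horizontal axis) and of the Olig2 peak among all Olig2 peaks (vertical axis), by block 1 coverage, for each of the 744 regions. Triangles are the 76 regions with a Gli3 peak, circles the 668 without; the points fill all corners, with 303 above 50 on both axes.

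The region with the highest sum of ranks was chr13:68752025-68752406. In blocks 1, 2 and 3 it had 147.5, 49.5 and 0.629 units in the Nkx2.2 table and 75.3, 31.6 and 0.355 in the Olig2 table. Next came chr10:51681355-51681670, with 56.2, 12.9 and 1.41 units in the Nkx2.2 table and 96.0, 67.3 and 1.05 in the Olig2 table. Both were high for each factor in blocks 1 and 2 and not high in block 3. At chr12:33792401-33793085, a region of 3 peaks, Olig2 reached 260.2 units in block 1, the highest of the 744, but 56.2 in block 2, and Nkx2.2 had 50.1 and 12.0. The region chr2:105530051-105530465 had 63.7 and 19.5 units of Nkx2.2 and 52.8 and 54.8 of Olig2 coverage, with an Nkx6.1 peak 18532 bp away. The remaining pair of this group, chr16:91193438-91193778 and chr14:58253046-58253364, had 78.3 and 51.1 units of Nkx2.2 and 46.4 and 59.3 units of Olig2 coverage in block 1. None of these 6 held a Gli3 peak, a count too small to set against the 10.2% of all 744 that did. Gli3 lay at 2 of the 15 regions with both ranks over 90 and at 37 of the 303 with both over 50.

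Other regions leaned far to one factor. Nkx2.2 outranked Olig2 most at chr19:29493192-29493512, with 55.7 and 25.9 units of Nkx2.2 coverage in blocks 1 and 2 (rank 95.4) and 5.74 and 7.39 of Olig2 (rank 4.97). At chr16:29668527-29668846, Nkx2.2 reached 268.1 and 54.3 units (rank 99.9), while Olig2 had 7.22 and 9.73 (rank 17.4). The same lean held at chr10:42832162-42832504, with block 1 values of 137.9 units of Nkx2.2 and 6.77 of Olig2, and at chr3:94288039-94288397, with 40.2 and 5.36. The opposite lean was largest at chr15:81661954-81662268, where Olig2 had 39.3 and 28.2 units (rank 91.7) and Nkx2.2 had 8.08 and 0.836 (rank 1.82). This region also had high block 3 coverage, with 3.46 units around the Nkx2.2 centre and 3.08 around the Olig2 centre, the latter the highest of the 744. At chr3:17954002-17954523, Olig2 had 72.8 and 69.4 units and Nkx2.2 had 10.9 and 3.13, and at chr1:43155084-43155591 Olig2 had 51.8 and 38.1 and Nkx2.2 10.8 and 3.27. In block 1 of chr7:103867261-103867678, Olig2 had 29.3 units and Nkx2.2 7.03. Block 2 leaned the same way, except that Olig2 block 2 coverage of the last region, 11.4 units, was below the median of the 744. The weakest regions for both factors were chr8:86272691-86273033, chr4:116666900-116667256 and chr13:54722761-54723266, with 6.61 to 8.55 units of Nkx2.2 and 5.73 to 5.85 of Olig2 coverage in block 1.

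Where the 2 centres were apart, each factor's coverage leaned towards the other's centre. This was measured in the 237 regions with centres 100 to 275 bp apart, by comparing coverage at the partner's centre with coverage at the mirror position, the same distance away on the other side. In the Nkx2.2 table, mean coverage at the Olig2 centre was 19.9 units against 14.6 at the mirror position in block 1 (1.36 times, higher in 150 of 237 regions), and 7.68 against 4.97 in block 2 (1.55 times, higher in 165). In the Olig2 table, coverage at the Nkx2.2 centre was 18.3 against 14.7 units in block 1 (1.25 times, higher in 157) and 17.2 against 11.9 in block 2 (1.44 times, higher in 172). Block 3 leaned the same way, by 1.26 times (Nkx2.2 table, higher in 141 of 237 regions) and 1.37 times (Olig2 table, higher in 133), and its part in the lean of the other blocks was not tested. In regions of all 3 factors (178 with such a spacing) the Nkx2.2 lean was 1.58 times in block 1 and 1.60 in block 2, and the Olig2 lean 1.22 and 1.41 times.

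The absence of an Nkx6.1 peak did not always mean low Nkx6.1 coverage. Nkx6.1 coverage is given only around Nkx6.1 peaks, so it could be read at those 33 of the 744 regions whose midpoint lay 300 to 1900 bp from the centre of an Nkx6.1 peak. Averaged within 100 bp of the midpoint, Nkx6.1 block 1 coverage there ranged from 0.196 to 18.2 units with a median of 7.11, against 0.978 at the mirror position on the other side of the Nkx6.1 peak and 18.3 at its centre. It was higher at the region than at the mirror position in 30 of 33 regions, and so it was in block 2 (medians 4.25 and 0.640). Block 3 of that table had medians of 1.23 and 0.539 units and was higher at 25 of 33 regions, and its part in the difference was not tested. In the 12 regions at 1000 bp or more from the Nkx6.1 centre, the block 1 medians were 7.60 and 0.913, with 11 of 12 higher. The lowest of all 4094 Nkx6.1 peaks had 6.20 units in block 1 and their 5th percentile was 10.2, measured in the same way; 19 of the 33 regions reached the first value and 6 the second. In block 2 the same limits were far lower, with 0 units for the lowest peak and 1.95 for the 5th percentile, and 33 and 30 of the 33 regions reached them. At Nkx2.2-only regions near an Nkx6.1 peak the median was 3.72 units (85 regions) and at Olig2-only regions 3.33 (350 regions), also above their mirror positions (0.848 in both). How the other regions would read is not known, as no Nkx6.1 coverage was used away from Nkx6.1 peaks.

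The regions nearest to an Nkx6.1 peak show this in single cases. At chr13:79075435-79075813, 17 bp from an Nkx6.1 peak, Nkx6.1 coverage was 7.11 units in block 1 and 6.86 in block 2, against 0.978 and 1.63 at the mirror position. At chr13:116541450-116541792, 18 bp from one, it was 7.17 and 5.12 against 0.652 and 1.57. At chr1:135077778-135078222, 23 bp from one, it was 6.39 and 2.50 against 2.35 and 0.698. All 3 stood above the mirror position in both blocks. The highest value was at chr6:52114391-52114771, with 18.2 units against 1.89 in block 1; it and the next were named after their values were seen. The clearest exception was chr17:15517508-15518004, with 3.26 units against 12.1.

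**Figure D4:**
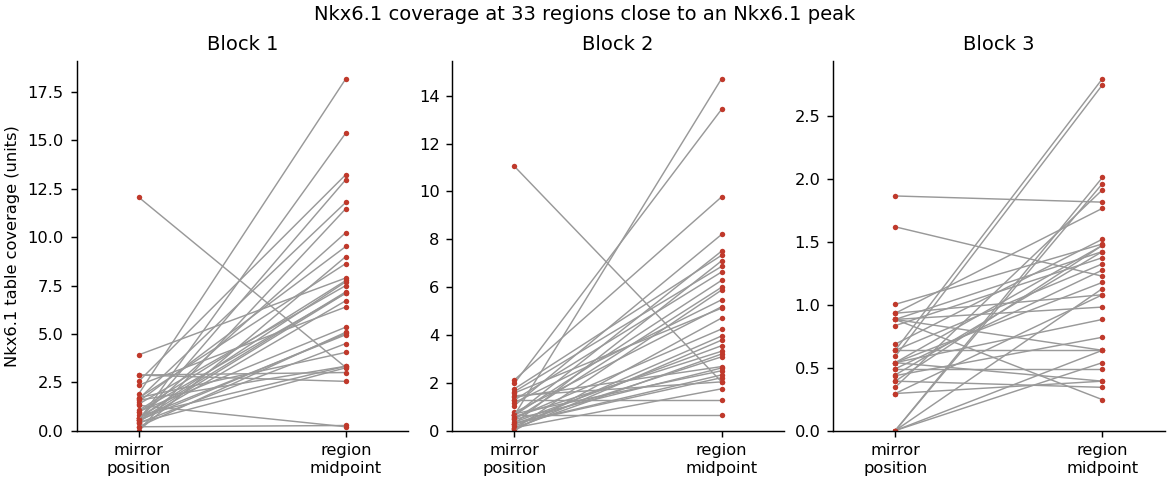
Coverage from the Nkx6.1 table in units (vertical axes, from 0) at the midpoint of 33 regions of Nkx2.2 and Olig2 that lie close to an Nkx6.1 peak, and at the mirror position on the other side of that peak, in blocks 1, 2 and 3. Each line joins the values of 1 region; in blocks 1 and 2, 30 of 33 lines rise.

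Nkx6.1 peaks were also more often found in the wider surroundings of these regions than of regions of either factor alone. An Nkx6.1 peak lay within 10 kb of 86 of the 744 regions (11.6%, 9.46 to 14.1), against 6.77% (6.01 to 7.62) of Nkx2.2-only and 9.68% (9.09 to 10.3) of Olig2-only regions. Within 100 kb the shares were 47.0% (43.5 to 50.6), 32.5% (31.1 to 34.0) and 40.8% (39.8 to 41.8). Median distances to the nearest Nkx6.1 peak were 114.4, 192.7 and 146.6 kb. These distances were not tested, since Nkx6.1 peaks had a part in the choice of regions, and at 10 kb the interval for Olig2-only regions overlaps that of the 744.

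The 744 regions were spread over the chromosomes, and part of them had a neighbour of the same kind close by. They lay on all autosomes and chromosome X, and made up between 2.44% (1.49 to 3.99, chromosome 17) and 5.75% (4.40 to 7.48, chromosome 13) of the ventral regions of a chromosome. Another of the 744 lay within 10 kb of 42 regions (5.65%, 4.20 to 7.54) and within 100 kb of 141 (19.0%, 16.3 to 21.9), and the median distance to the next was 577.0 kb. On a fixed grid of 100-kb windows none held more than 3 of them, and 5 held 3, while at most 4 fell within 100 kb when the stretch could start anywhere. The grid windows with 3 started at 146000001 on chromosome 2, 54600001 on chromosome 4, 52100001 on chromosome 6, 95700001 on chromosome 10 and 18700001 on chromosome 11. In that of chromosome 10, 3 of the 4 ventral regions were of this kind, and in that of chromosome 6, 3 of 18. How close the 744 lay to each other was not compared with other classes or with an even spread. The 3 widest regions were chr16:91770625-91771416, chr14:20806022-20806805 and chr12:81163238-81164008, of 771 to 792 bp and 3 or 4 peaks.

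Gli3 was the 1 factor with no part in the choice of regions, so its peaks allowed a test. A Gli3 peak overlapped 76 of the 744 regions (10.2%, 8.24 to 12.6), against a background of 3.82% of all 17913 ventral regions. An overlap is easier for a wider region, and the 744 had a larger median width than every compared class except regions of all 3 factors. Olig2-only regions held Gli3 in 196 of 9342 cases (2.10%, 1.83 to 2.41), giving the 744 regions an odds ratio of 5.31 over them (interval 3.97 to 7.04, adjusted p = 8.24e-25 by two-sided Fisher's exact tests on 5 classes). Nkx6.1 and Olig2 regions without Nkx2.2 held it in 46 of 1010 (4.55%), an odds ratio of 2.38 (interval 1.61 to 3.56, adjusted p = 1.58e-05, Fisher's exact test). Nkx2.2 and Nkx6.1 regions without Olig2 held it in 9 of 316 (2.85%), an odds ratio of 3.88 (interval 1.91 to 8.92, adjusted p = 3.22e-05, Fisher's exact test). Gli3 peaks were thus more frequent at Nkx2.2 and Olig2 regions than at either other pair of ventral factors. Within 10 strata of block 3 coverage both odds ratios were lower. They were 1.71 (interval 1.14 to 2.57, Olig2 table) over Nkx6.1 and Olig2 regions and 2.94 (interval 1.45 to 5.98, Nkx2.2 table) over Nkx2.2 and Nkx6.1 regions. Strata of blocks 1 and 2 gave 2.56 and 2.52 over the former and 3.95 and 4.09 over the latter.

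The other differences were smaller. Nkx2.2-only regions held Gli3 in 271 of 3781 cases (7.17%), an odds ratio of 1.47 (interval 1.11 to 1.93, adjusted p = 0.00812, Fisher's exact test). When peaks were joined only where they shared 150 bp, this odds ratio was 1.32 (0.971 to 1.77) and no longer past the threshold (Fisher's exact test, adjusted p = 0.0800, the highest over 7 alternatives, of which the lowest was 0.000369). Within 10 strata of block 3 coverage of the Nkx2.2 table, in which Nkx2.2-only regions were higher, it was 1.85 (interval 1.40 to 2.44). Regions of all 3 ventral factors held Gli3 in 69 of 550 cases (12.5%), and the odds ratio of 0.793 did not pass the threshold (interval 0.553 to 1.14, adjusted p = 0.212, Fisher's exact test). In strata of the Olig2 table this odds ratio was 1.02 by block 2 and 0.678 (interval 0.473 to 0.971) by block 3, the latter past the threshold with an unadjusted Mantel-Haenszel p of 0.0339; over the 6 ways of forming strata, p ran up to 0.92. The odds ratio over Olig2-only regions was 3.18 within 10 strata of Olig2 block 2 coverage and 3.49 within 10 strata of block 3, both lower than without such grouping. Chromosome 8 held the most regions with Gli3, 10 of the 76 (26.3% of its 38 regions, 15.0 to 42.0). Chromosome 17 had a similar share, with 4 of its 15 regions (26.7%, 10.9 to 52.0). Without chromosomes 8 and Y the share was 9.35% (7.42 to 11.7).

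Among the 744 regions, those with Gli3 differed little in block 1 coverage and more in block 3. Gli3 lay at 12.1% (9.16 to 15.8) of the 372 regions with higher Nkx2.2 block 1 coverage and at 8.33% (5.93 to 11.6) of the 372 with lower (odds ratio 1.51, interval 0.911 to 2.54, adjusted p = 0.226, Fisher's exact tests on 3 splits). For Olig2 block 1 the shares were 11.8% and 8.60% (odds ratio 1.42, interval 0.859 to 2.38, adjusted p = 0.226, Fisher's exact test). Split by block 3 of the Olig2 table, however, they were 15.9% of the upper 371 and 4.56% of the lower 373, an odds ratio of 3.95 (interval 2.22 to 7.39, adjusted p = 6.55e-07, Fisher's exact test). By rising quartile of that block the share went from 3.23% through 5.91% and 10.8% to 20.97%. By block 3 of the Nkx2.2 table the split gave 13.98% and 6.45%, an odds ratio of 2.35 (interval 1.39 to 4.09, adjusted p = 0.00292, Fisher's exact test). By Olig2 block 2 it gave 13.2% and 7.26%, an odds ratio of 1.94 (interval 1.16 to 3.31, adjusted p = 0.0319, Fisher's exact test). Over the 3 alternatives for each split, adjusted p of Fisher's exact test ran from 0.00292 to 0.904 for the Nkx2.2 table and from 6.55e-07 to 0.904 for the Olig2 table. For the adjustment each alternative was put singly into the set of 3 splits, so the choice among blocks and windows is not covered. Median block 3 coverage of the Olig2 table was 1.46 units at the 76 regions with Gli3 and 0.952 at the 668 without. Since block 3 of the Olig2 table may be input coverage, its split may not be one by Olig2 binding. What block 3 of the Nkx2.2 table holds is not known, so its split may not be one by Nkx2.2 binding either. The part of block 3 in the Gli3 overlap was not tested beyond these splits and strata.

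**Figure D5:**
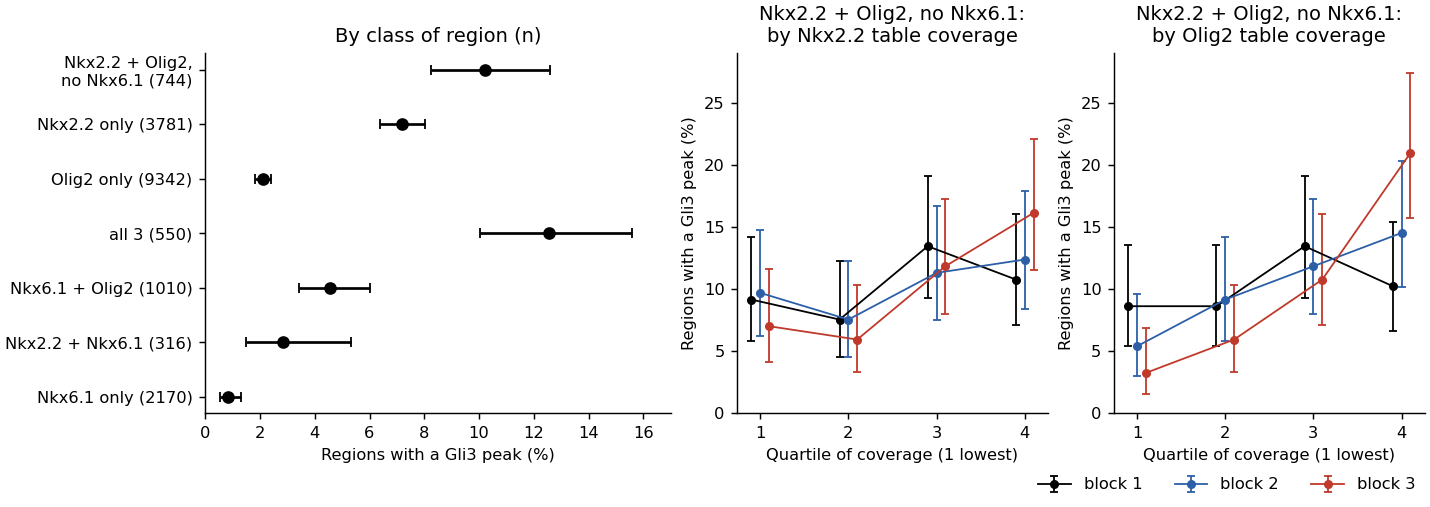
Left, share of regions with a Gli3 peak in % (horizontal axis) by class of region with the number of regions; middle and right, the same share (vertical axes) among the 744 regions by quartile of coverage in the Nkx2.2 and the Olig2 table, for blocks 1, 2 and 3, with 186 regions a point. Bars are 95% Wilson intervals; the 744 regions stand at 10.2%, and the steepest rise, from 3.23% to 20.97%, is by block 3 of the Olig2 table.

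Within a region, Gli3 was not clearly nearer to either factor. Its centre was a median of 71 bp from the Nkx2.2 centre and 61.5 bp from the Olig2 centre. It was nearer to Nkx2.2 in 41 of 76 regions (53.9%, 42.8 to 64.7), nearer to Olig2 in 34 and equally far in 1. The distance between the Nkx2.2 and Olig2 centres made no difference past the threshold: Gli3 lay at 8.78% of the 376 regions with centres up to 68 bp apart and at 11.7% of the 368 others (odds ratio 0.727, interval 0.436 to 1.20, adjusted p = 0.226, Fisher's exact test). Seen from the Gli3 list, 78 of 1888 peaks (4.13%, 3.32 to 5.13) lay in these regions.

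By sum of ranks, the leading region with Gli3 was chr7:150614368-150614731, with 46.8 and 17.5 units of Nkx2.2 and 65.9 and 115.3 of Olig2 coverage in blocks 1 and 2. Its block 3 values were 3.37 (Nkx2.2 table) and 1.98 units (Olig2 table), both in the top quartile of the 744. At chr4:71146312-71146730, Nkx2.2 had 49.9 and 19.6 units and Olig2 35.1 and 56.4, and block 3 had 0.920 and 0.934. This region lay 1069 bp from an Nkx6.1 peak and had Nkx6.1 coverage of 10.2 units in block 1, against 0.652 at the mirror position. The region chr11:96438084-96438662, of 3 peaks, lay 1726 bp from an Nkx6.1 peak and had 32.1 and 12.7 units of Nkx2.2 and 35.3 and 34.3 of Olig2 coverage. The other 3, chr19:23476346-23476652, chr8:89985744-89986068 and chr14:67963438-67963821, had 28.1 to 73.2 units of Nkx2.2 and 18.1 to 42.6 of Olig2 coverage in block 1. Regions weak for both factors held Gli3 as well: 10 of the 126 regions with both ranks at or under 50 held one. Among them was chr13:54722761-54723266, the third lowest by sum of ranks. Of all 744 regions 10.2% held one, and of all 17913 ventral regions 3.82%. The count of 10 was not tested against these shares.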

How the data were processed

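The members and the lists compared were chosen with earlier results of these data known. Bowtie2 2.2.4, HOMER and the build mm9 are named in the submitters' processing notes; the step each took part in, the peak threshold and any pooling of replicates are not given in the sources used here. Each peak was deposited by the authors as chromosome, start and end, and coverage in steps of 25 bp up to 2000 bp from each peak centre; per the file headers it has 3 blocks without library names. Low values (up to 20 steps) were whole multiples of 1 step per block within 0.02 of a step, so coverage was scaled by a factor not known here. Table row i was taken as line i of the list: shifted profiles of peaks within 1000 bp of each other had median correlations of 0.970 to 0.998.

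Regions, shares and odds ratios were computed with Python 3.11.15, scipy 1.17.1 and statsmodels 0.14.6 (Mantel-Haenszel), and tested on simulated data. Gli3 shares were compared by two-sided Fisher's exact tests, with conditional odds ratios and p-values adjusted by Benjamini-Hochberg over 5 classes and over 3 comparisons within the regions, at a threshold of 0.05. Coverage of a region is the mean within 250 bp of the centre of its peak with the highest block 1 coverage. Named regions are the highest and lowest by the sum and the difference of percentile ranks, the leading ones with Gli3, the widest, those at the edge of the rule and those nearest to an Nkx6.1 peak. Alternatives were other overlaps, windows, blocks and left-out chromosomes or neighbours. Columns of other samples left out numbered 0. No genome or annotation of mm9 was used here, so the planned motif search was not run.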

Additional observations from a re-analysis of the deposited data

How the results depend on the processing

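Of 53 alternatives for the 5 comparisons of Gli3 with other classes, 50 kept the direction and the side of the threshold. The exceptions were the odds ratio over Nkx2.2-only regions with peaks joined at 150 bp (1.32), and that over regions of all 3 factors within 10 strata of Olig2 block 2 coverage (1.02) and of block 3 coverage (0.678, 0.473 to 0.971); the cause was not tested. The grouping by strata of coverage was chosen after seeing the data. Odds ratios ranged from 3.18 to 6.18 over Olig2-only, 1.71 to 2.56 over Nkx6.1 and Olig2, 2.57 to 4.44 over Nkx2.2 and Nkx6.1 and 1.32 to 1.85 over Nkx2.2-only regions.

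Within the 744 regions the split by coverage depended on the block. Odds ratios past the threshold were 2.35 for block 3 of the Nkx2.2 table, and 1.94 for block 2 and 3.95 for block 3 of the Olig2 table. In block 3 they were 2.37 and 3.63 without chromosomes 8 and Y, and 2.09 and 3.88 with a Gli3 centre within 250 bp of the midpoint, both chosen after seeing the data. With coverage taken within 100 bp of the centre, the Nkx2.2 block 1 value was 0.943, on the other side of 1; the cause was not tested. The 11 alternatives for the number, spacing and percentile ranks of the regions gave 640 to 744 regions (1 of them, direct overlap of an Nkx2.2 and an Olig2 peak, is fixed by the rule), median spacings of 54 to 66 bp, and ranks of 58.2 to 63.1 for Nkx2.2 and 60.6 to 71.1 for Olig2. No paired analysis was possible because the blocks of columns carry no replicate number and each factor has 1 peak list. Without library names and counts, neither depth nor replicate error could be given.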

Other observations

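The lines of the deposited lists were ordered largely by block 1 coverage, with rank correlations of line number and block 1 coverage of -0.83 for Nkx2.2 and -0.93 for Olig2. The 78 Gli3 peaks in the regions of Nkx2.2 and Olig2 without Nkx6.1 had a median position at 37.1% of the way down the Gli3 list. What orders that list is not known. Of the 27 such regions within 1000 bp of an Nkx6.1 peak, 5 held a Gli3 peak. The shares were 10.2% of all 744 and 3.82% of all 17913 ventral regions, and this small count was not tested against them. The 2 regions highest in Nkx2.2 block 1 coverage, chr17:86113724-86114047 with 391.4 units and chr6:53688330-53688657 with 356.5 units, were named after their values were seen. Neither held a Gli3 peak, like 668 of the 744 regions.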
